A study of Drosophila melanogaster with 4 samples.

Results

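The genes described here are Akh, which encodes the adipokinetic hormone, AkhR, which encodes its receptor, and Lst, which encodes the peptide limostatin. They are 3 of the 13932 genes in a table of RPKM values (reads scaled to gene length and to the size of the library) from guts of female fruit flies, Drosophila melanogaster. The flies were wild-type Oregon R-C, reared from the egg on a chemically defined diet with either no manganese or 5 ppm manganese added, and the young females had 5 further days on fresh diet of the same kind before sampling. There are 2 libraries per diet, B and C by the letters in the table. The study asked which genes respond to manganese depletion. Akh was picked for its diet difference in these same libraries, so its values are a description and carry no test. AkhR and Lst were taken for their roles.

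Adipokinetic hormone is a short peptide made by the neurosecretory cells of the corpora cardiaca, a gland that lies beside the foregut, near the proventriculus. Its release rises in hunger, and it acts through a G protein-coupled receptor on the fat body, where stored lipid and glycogen are mobilised. It is often likened to mammalian glucagon. Limostatin is a second hormone of the same gland cells; it is induced by nutrient restriction and lowers insulin secretion. The gland is fused in the adult with the corpora allata, which make juvenile hormone, and sits beside a small ganglion and the aorta, so a dissected gut may or may not carry it.

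The members lie on separate chromosome arms of the dm6 assembly. Akh (FBgn0004552) lies on the plus strand of chromosome 3L, from 4141467 to 4142070, with 536 exon bases in 2 exons. AkhR (FBgn0025595) runs from 6711286 to 6716186 on the minus strand of 2L, and Lst (FBgn0034140) from 16574579 to 16576586 on the minus strand of 2R. All 3 are protein-coding, and 0.0% of their exon bases are shared with another annotated gene. For Lst all 2008 bases of the locus count as exon, because 1 of its 3 annotated transcripts keeps the intron; the spliced forms have 1035 and 1074 bases. RPKM divides by the longer figure, so the level of Lst per spliced transcript would be higher than the one printed.

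Akh RNA was abundant enough to count in both no-manganese libraries and near the floor of counting in the 5 ppm libraries. It stood at 5.07 RPKM in no-manganese library B and 5.03 in library C, against 0.153 and 0.799 RPKM in 5 ppm libraries B and C. The diets did not overlap, and the no-manganese libraries were almost equal while the 5 ppm libraries lay 5.23-fold apart. Converted back to reads, the values are 71 and 71 reads without manganese and 2 and 12 at 5 ppm, whole numbers in every library. The 95% exact Poisson intervals were 55.5 to 89.6 reads for each no-manganese library, 0.242 to 7.22 reads for 5 ppm library B and 6.20 to 21.0 for library C. These intervals cover counting error only. In 5 ppm library B the count was under the floor of 3 reads, which is 0.229 RPKM for a gene of this length.

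Over the diets, mean levels of Akh were 5.05 ± 0.0257 and 0.476 ± 0.457 RPKM (SD, n = 2 each), a log2 difference of 2.07 on the scale of RPKM + 1. Summed over libraries, 142 reads stood against 14, a 10.1-fold higher read rate without manganese with a counting interval of 5.85 to 19.0. The size depends on which 5 ppm library is used. Against library C the fold was 6.32 (3.51 to 12.5), and against library B, with its 2 reads, 33.0 (8.98 to 275). Leaving out either no-manganese library left it at 10.1 or 10.2. In a bulk sample, fewer cells of a type and less RNA per cell cannot be told apart. Whether libraries of 1 diet were prepared from separate flies is not stated in the labels, so the p-values below rest on a spread that may be technical.

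**Figure D1:**
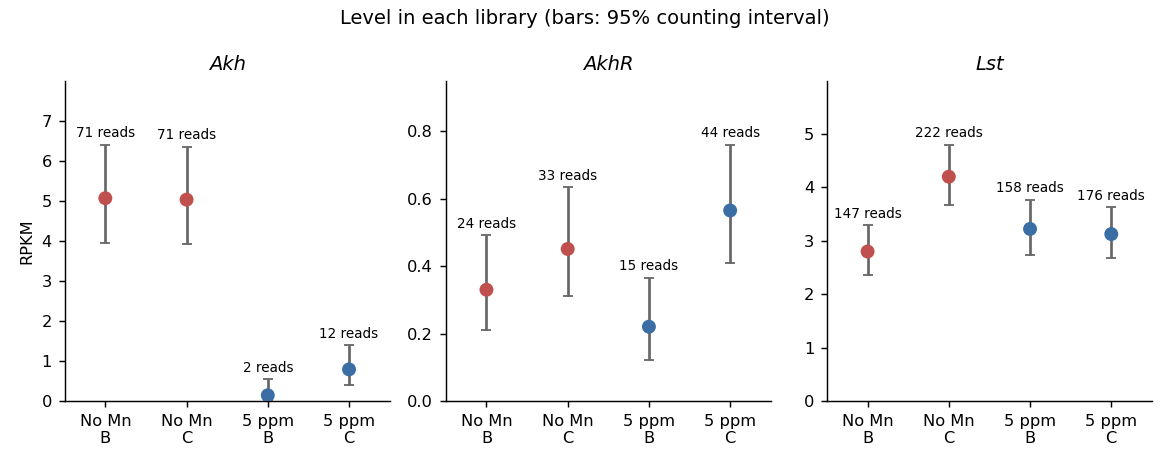
RPKM of Akh, AkhR and Lst in each library (red, no manganese; blue, 5 ppm), with the read count above each point and 95% exact Poisson intervals as bars; each panel has its own axis from 0. Akh is at 71 and 71 reads without manganese against 2 and 12 at 5 ppm, whereas for AkhR and Lst the diets overlap.

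Lst, the other hormone of the same gland cells, did not follow Akh. It had 2.80 and 4.20 RPKM in no-manganese libraries B and C, and 3.22 and 3.13 RPKM in 5 ppm libraries B and C. The no-manganese libraries were the lowest and the highest of the 4, with the 5 ppm libraries between them. The reads behind these values were 147, 222, 158 and 176. The log2 difference was 0.09 ± 0.18 SE (limma, adjusted p = 0.961 over all genes tested). The read rate was 1.10-fold higher without manganese, with a counting interval of 0.950 to 1.28. Within the no-manganese diet, library C was 1.50-fold above library B (1.21 to 1.86), a wider gap than between the diets. Without the no-manganese library C, the sign turned, to -0.14 (adjusted p = 0.901).

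Set against Lst within the same library, Akh stood in another proportion on each diet. For every 100 reads of Lst there were 48.3 reads of Akh in no-manganese library B and 31.98 in library C. In the 5 ppm libraries there were 1.27 (0.152 to 4.65) in B and 6.82 (3.46 to 12.2) in C. The counting intervals of the no-manganese libraries, 35.9 to 64.5 and 24.1 to 42.0, did not meet those of the 5 ppm libraries. These intervals cover counting error only, not the spread between libraries. Since Akh was picked for its diet difference, the proportion is a description and no test. Per exon base, Akh was 1.81 and 1.20 times the level of Lst without manganese, and 0.0474 and 0.255 times at 5 ppm.

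AkhR was low in all 4 libraries. It had 0.330 and 0.451 RPKM in no-manganese libraries B and C, and 0.221 and 0.565 RPKM in 5 ppm libraries B and C. The 5 ppm libraries were the lowest and the highest of the 4. The reads were 24, 33, 15 and 44, which came out whole with 2781 exon bases, the length without the transcript FBtr0332331, and not with the full 3182. The log2 difference was 0.01, with SDs of 0.09 and 0.25 on that scale. The read rate ratio of 0.966 had a counting interval of 0.659 to 1.41. Within the 5 ppm diet library C was 2.56-fold above B (1.39 to 4.94), so a change smaller than this spread was not detectable here. With a mean of 0.392 RPKM over the 4 libraries AkhR lay under the level of 1 RPKM set for testing; fitted without that limit, it had an adjusted p of 0.999 (limma). The fat body is a main site of this receptor in flies. Its 8 listed markers summed to 395 and 871 RPKM without manganese and 238 and 516 at 5 ppm. Yolk protein genes Yp1, Yp2 and Yp3 made up most of this sum, and lipophorin genes were among the rest. Both this sum and AkhR were higher in library C than in library B of each diet. Of the listed markers only the gene to ran the other way within the no-manganese diet. It had 64.3 and 36.2 RPKM in no-manganese libraries B and C, and 29.0 and 36.8 in 5 ppm libraries B and C. The sum was highest in no-manganese library C, which also carried the most ovarian RNA. The part of fat body tissue in the AkhR values was not tested.

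Akh and Lst passed the limit of 1 RPKM; Akh, at 2.76 RPKM over the 4 libraries, passed only through the diet in which it was high. Among the 7556 genes tested with limma, 0 were called higher without manganese (0%) and 0 lower (0%) at an adjusted p under 0.05. The unadjusted p was under 0.05 for 218 genes on the higher and 223 on the lower side, and limma's voom on recovered reads also called 0 and 0. The diets did not overlap in 36.9% of the tested genes, 21.7% with the higher values and 15.2% with the lower values on the no-manganese side. Of all tested genes, 32 (0.424%) were higher by at least 1 on the log2 scale with no overlap. Akh is 1 of these, as it was chosen to be, and ranked 15 among all differences on that side. The median log2 difference of all tested genes was 0.024, and it was positive in 56.4% of them.

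**Figure D2:**
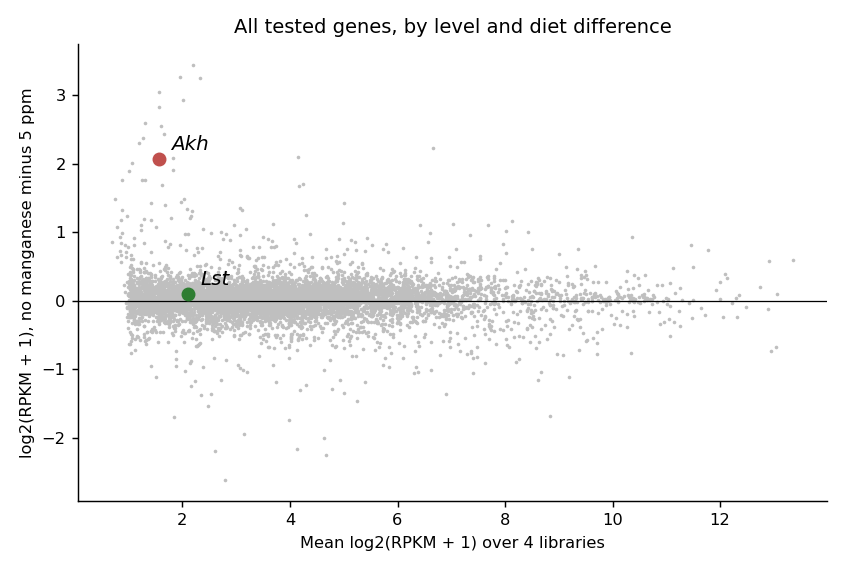
Each grey point is 1 of the 7556 tested genes, placed by its mean log2(RPKM + 1) over 4 libraries (horizontal) and its log2 difference, no manganese minus 5 ppm (vertical). Akh lies at 2.07, near the upper edge at its level, and Lst at 0.09, within the main band.

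The genes next to Akh did not share its pattern. Ras64B, a Ras-family GTPase gene whose nearer end is 69 bases from Akh, had 14.9 and 13.9 RPKM without manganese and 14.3 and 12.7 at 5 ppm. Rop, which acts in vesicle fusion and lies 2471 bases away, had 57.8 and 50.4 against 50.8 and 45.5 RPKM. The diets overlapped for both. CG32260, 294 bases beyond the other end of Akh, was very low. It had 0.0395 and 0.0196 RPKM without manganese and 0.0847 and 0.0553 in the 5 ppm libraries, and no direction was read at that level. These 3 neighbours were chosen by position after the values of Akh were known.

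By likeness of profile, measured as the distance between log2(RPKM + 1) values over the 4 libraries after removal of each gene's mean, the 5 tested genes closest to Akh were CG14075, CG5550, Npc2c, lcs and CG40198. Their distances ran from 0.489 to 0.934 log2 units. The closest, CG14075, had 6.36 and 6.26 RPKM without manganese and 0.0608 and 0.477 at 5 ppm, thus also lowest in 5 ppm library B. Closest to Lst were ValRS-m, CG8298 and Snx21, with distances of 0.0297 to 0.0376 and, like Lst, the highest value in no-manganese library C. The likeness rests on 4 libraries and is a description.

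Markers of the gland's surroundings showed a mixed picture beside the Akh difference. The transcription factor gene gl (glass), active when the gland forms, had 0, 1, 0 and 0 reads, so of the 3 listed gland markers Akh and Lst carried the whole signal. Their summed level was 7.87 and 9.25 RPKM without manganese and 3.38 and 3.93 at 5 ppm. This sum holds Akh, which was picked for its diet difference, so its gap is no separate observation. Lst alone overlapped between the diets. The gene jhamt encodes the juvenile hormone acid methyltransferase of the corpora allata, to which the corpora cardiaca are fused. It had 1.36 and 4.003 RPKM in no-manganese libraries B and C, and 0.458 and 0.732 RPKM in 5 ppm libraries B and C. Behind these were 38, 113, 12 and 22 reads. The diets did not overlap for jhamt, and its log2 difference was 1.11 ± 0.39 SE (limma, adjusted p = 0.802). Unlike Akh, it was 2.95-fold higher in no-manganese library C than in B. Of the 7 corpora allata and ring gland genes matched, 3 were higher without manganese with no overlap, namely jhamt, Jheh1 and dib. Only 4 of the 7 were tested, and 2 of these (50%) had no overlap, against 36.9% of all tested genes. The exon bases of Jheh1 are all shared with another gene (100%), and dib rests on 1, 2, 0 and 0 reads. The list summed to 244 and 305 RPKM without manganese and to 186 and 236 at 5 ppm, most of it from Jheh1 and Jheh2. Of the exon bases of Jheh2, 91.6% are also shared with other annotated genes, so most of this sum does not single out the corpora allata.

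Nerve tissue markers overlapped between the diets in their sum. The 17 neuron and glia genes summed to 19.97 and 24.7 RPKM without manganese and to 19.5 and 28.4 at 5 ppm. The general neuronal gene elav had 1.01 and 1.24 against 1.03 and 1.08 RPKM, and the synaptic gene nSyb 0.718 and 0.862 against 0.918 and 0.880. Singly, 3 of the 17 were lower without manganese with no overlap (nSyb, brp and futsch) and 1 was higher (repo, a glial gene, at no more than 0.0634 RPKM). All of these lay under the level set for testing. In the 3 neuron and glia genes tested the diets overlapped, while 36.9% of all tested genes had no overlap. The brain peptide gene Crz was at 0 in every library, and Ilp2 and Ilp5, made by insulin-producing neurons of the brain, had at most 2 reads in any library. Of the heart and aorta genes, tin was at 0 throughout, and Hand, also active in gut muscle, had a mean of 15.9 RPKM without manganese against 12.8 and 14.6 in the 5 ppm libraries. The part of carried-over gland tissue in the Akh values was not tested; Lst, made by the same cells, overlapped between the diets, and jhamt did not.

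Ovarian RNA was highest in no-manganese library C. Vm34Ca, a vitelline membrane gene, had 209.9 RPKM there and 0.0780 to 0.436 RPKM in the other libraries, and the germline gene osk 18.1 against 0.0801 to 0.622. The eggshell genes Cp36 and Cp38 were closer, at 1.94 and 1.34 RPKM in no-manganese library C and 1.18 and 0.915 in 5 ppm library C. Over all 10 ovary and eggshell markers the sum was 0.598 and 513 RPKM in no-manganese libraries B and C. It was 1.51 and 4.51 RPKM in 5 ppm libraries B and C. Akh was the same in no-manganese library C as in no-manganese library B. The highest values of Lst and jhamt were both in no-manganese library C. The part of the ovarian RNA in the values of Akh, Lst and jhamt was not tested. Midgut genes were strong in all libraries, as in nub, a regulator of enterocyte identity, at 40.9 to 49.8 RPKM.

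**Figure D3:**
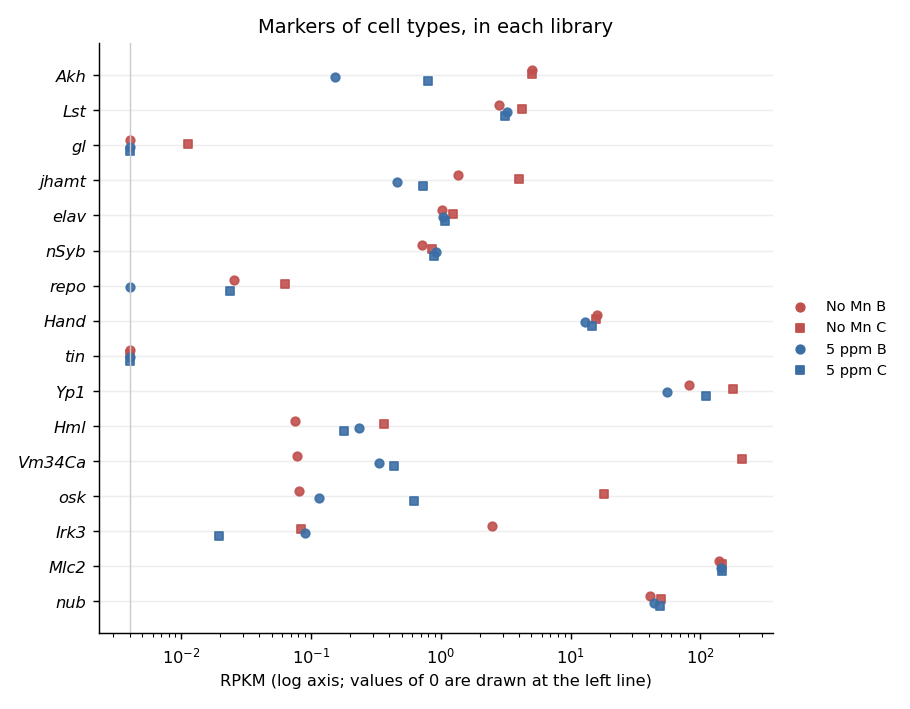
RPKM of marker genes on a log axis in each library (red, no manganese; blue, 5 ppm; circles, library B; squares, library C). From the top they mark the corpora cardiaca (Akh, Lst, gl), corpora allata (jhamt), neurons and glia (elav, nSyb, repo), heart (Hand, tin), fat body (Yp1), haemocytes (Hml), ovary (Vm34Ca, osk), Malpighian tubule (Irk3), muscle (Mlc2) and midgut (nub). Akh and jhamt separate the diets, Lst does not, and the ovary markers stand out in no-manganese library C.

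Akh is a minor hormone gene in these gut libraries. Ordered by mean RPKM, which is a level per length, most listed enteroendocrine hormone genes stood above it and Mip, at 0.470 to 1.96 RPKM, below it. Those above ran from CCHa2 at 111 to 149 RPKM over the libraries, through AstC, Orcokinin, NPF and Tk at 39.4 to 60.4, down to Dh31 at 7.34 to 12.8. ITP, from the list of other hormones, had 3.59 to 5.34 RPKM. Without manganese Akh, at 5.03 to 5.07 RPKM, lay within the range of ITP, and Lst below it in 1 library and within it in the other. With 5 ppm manganese Akh, at 0.153 and 0.799 RPKM, lay near sNPF at 0.603 and 0.642 RPKM and daw at 0.258 and 0.336. In rank, Akh was at 5369 and 5456 of 10610 and 10719 genes above 0 in no-manganese libraries B and C, and at 9101 and 7702 of 10695 and 10739 in the 5 ppm libraries.

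**Figure D4:**
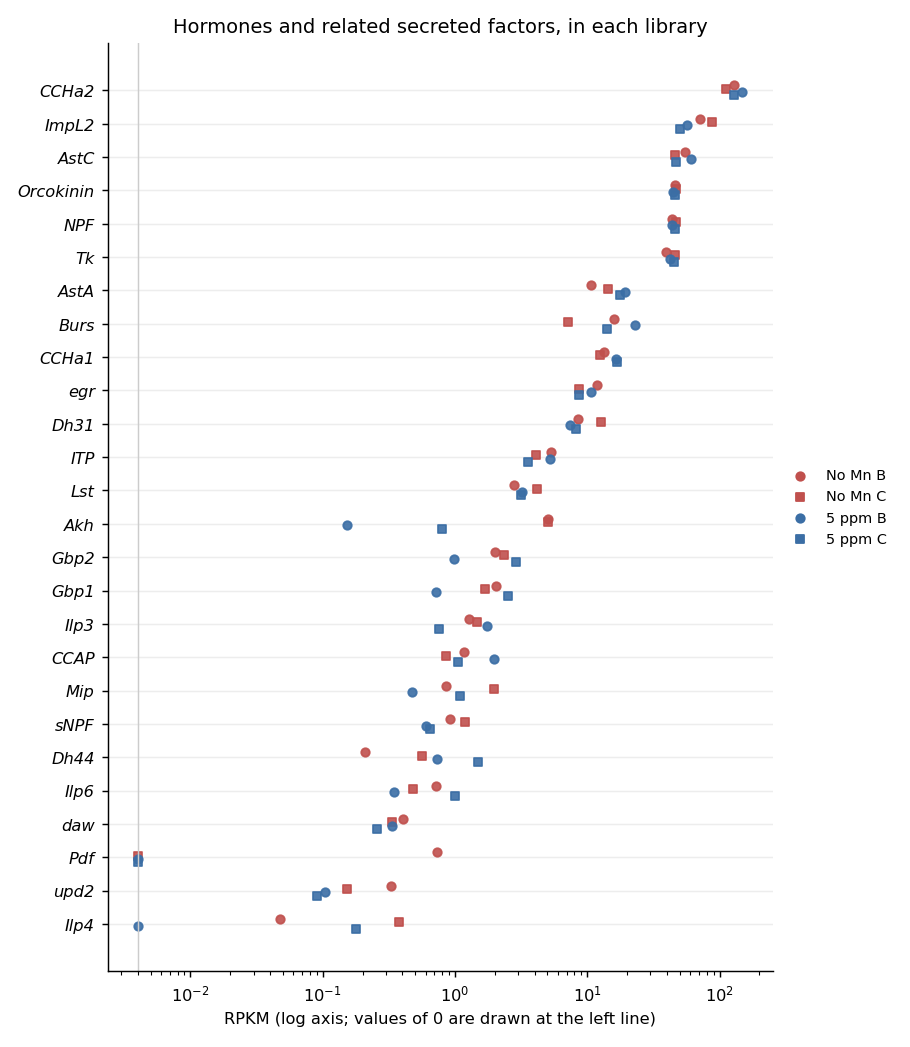
RPKM of hormone and related secreted-factor genes on a log axis, ordered by the mean over 4 libraries (symbols as for the markers). Akh is the gene with the widest gap between the diets in relation to its level among those detected in every library, at 5.03 to 5.07 RPKM against 0.153 and 0.799.

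Of the 36 other hormones and secreted regulators of energy balance that were matched, 17 were tested, 10 of them with higher and 7 with lower means without manganese. None was called (0 of 17, smallest adjusted p = 0.802). In 5 (29.4%) there was no overlap, against 36.9% of all tested genes, and the median log2 difference was 0.04. ImpL2, a secreted binder of insulin-like peptides, had 70.8 and 87.7 RPKM without manganese and 56.5 and 50.2 at 5 ppm (0.56 ± 0.15 SE), but 61.9% of its exon bases lie under another gene. The gut peptides CCHa1 and AstA lay lower without manganese, CCHa1 at 13.4 and 12.6 against 16.5 and 16.9 RPKM, and AstA at 10.7 and 14.4 against 19.1 and 17.8. Dh31, a peptide of gut endocrine cells, was at 0.38 ± 0.20 SE, and Burs, a subunit of bursicon, at -0.70 ± 0.42 SE. The remaining 19 were under 1 RPKM, 8 of them listed at 0 in all libraries.

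The machinery that cuts, amidates and releases peptide hormones showed no common direction between the diets, and part of it was low. Of 22 genes, 6 lay under 1 RPKM, among them dimm, Syt1, Snap25 and nSyb, at 0.0959 to 0.918 RPKM. The other 16 were tested, 8 with higher and 8 with lower means without manganese, and 0 were called (limma, smallest adjusted p = 0.776). For 7 (43.8%) there was no overlap, against 36.9% of all tested genes, and the median log2 difference was -0.04. The prohormone convertase amon had 5.91 and 6.78 RPKM without manganese and 6.43 and 6.11 at 5 ppm, and its helper 7B2 had 8.87 and 9.07 against 8.93 and 10.8. Peptide amidation, which finishes adipokinetic hormone among others, uses Phm, at 32.9 and 31.7 against 37.5 and 34.8 RPKM, and Pal1, at 4.03 and 5.22 against 3.53 and 3.83. The furin protease gene Fur1 had a log2 difference of -0.19 ± 0.11 SE, and the membrane fusion gene Syx1A 0.20 ± 0.12 SE. The largest difference was in Nep1, a neprilysin of the kind that degrades peptides, with 8.05 and 9.03 RPKM without manganese and 12.2 and 14.5 at 5 ppm (-0.59 ± 0.13 SE, adjusted p = 0.776). The enteroendocrine cells of the gut use this machinery too, so these genes do not single out the gland.

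Receptors and channels listed for control of the gland cells were mostly too low to test, 16 of 21 lying under 1 RPKM. Of the 5 tested, 4 had higher and 1 lower means without manganese, with a median log2 difference of 0.25, and 0 were called (smallest adjusted p = 0.802). There was no overlap for 3 (60%), against 36.9% of all tested genes. AstC-R2, a receptor for allatostatin C, had 1.86 and 1.58 RPKM without manganese and 1.13 and 0.870 at 5 ppm (0.44 ± 0.16 SE). Irk1, an inwardly rectifying potassium channel, was at 0.26 ± 0.12 SE, with 61% of its exon bases shared with another gene, and Dh31-R, the receptor for Dh31, at 0.25 ± 0.12 SE. AstA-R2, an allatostatin A receptor, and AMPKalpha, the catalytic subunit of the energy-sensing kinase, overlapped between the diets (0.13 ± 0.13 SE and -0.10 ± 0.12 SE). PK1-R is on this list but is reported as the receptor of limostatin, a product of the gland cells. It had 10, 11, 5 and 7 reads in no-manganese libraries B and C and 5 ppm libraries B and C. CrzR, a receptor related to AkhR, had at most 4 reads in any library. AstA-R1 and TkR86C had at most 1.

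Most signalling genes that act below the hormone's receptor were expressed above AkhR itself; Ac3 and CanA1, at 0.0243 to 0.285 RPKM, were not. Of 25 genes, 23 were tested, 12 with higher and 11 with lower means without manganese, and 0 were called (smallest adjusted p = 0.786). Between the diets 13 (56.5%) had no overlap, against 36.9% of all tested genes, and the median log2 difference was 0.05. The adenylyl cyclase gene rut had 3.32 and 2.51 RPKM without manganese and 4.70 and 5.46 at 5 ppm (-0.64 ± 0.16 SE). Itpr, the calcium release channel opened by inositol trisphosphate, had 4.55 and 5.56 against 6.59 and 7.34 (-0.40 ± 0.13 SE), and SERCA, the pump that refills that store, 49.1 and 49.4 against 55.6 and 60.7. Pka-R1, a regulatory subunit of the cyclic AMP kinase, and CaMKI, a calcium-dependent kinase, lay on the other side, at 0.25 ± 0.10 SE and 0.18 ± 0.09 SE. All these genes serve many receptors.

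Genes that handle stored fat, glycogen and trehalose, the fuels that the hormone mobilises, showed no common direction. Of 18 genes, 17 were tested, 7 with higher and 10 with lower means without manganese, and 0 were called (smallest adjusted p = 0.802). The diets did not overlap for 5 (29.4%), against 36.9% of all tested genes, and the median log2 difference was -0.08. Treh, which splits trehalose, had 255 and 177 RPKM without manganese and 351 and 328 at 5 ppm (-0.67 ± 0.21 SE). Lsd-1, a perilipin that coats fat droplets, was high in a single library, at 6.52 and 21.9 RPKM without manganese against 5.40 and 5.28 at 5 ppm. Lsd-1 had a log2 difference of 1.05 ± 0.54 SE and the lipase gene Lip4 0.80 ± 0.40 SE, the latter with its lowest value, 5.73 RPKM, in 5 ppm library C. The fat lipase gene bmm overlapped between the diets, at 33.8 and 21.4 against 57.8 and 29.3 RPKM. AGBE, the glycogen branching enzyme, also overlapped (-0.31 ± 0.18 SE). Pepck1, of gluconeogenesis, was listed at 0 in all libraries, where another gene covers 100% of its exon bases. The hormone is known to act on these genes' products in the fat body, and these libraries are of gut.

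**Figure D5:**
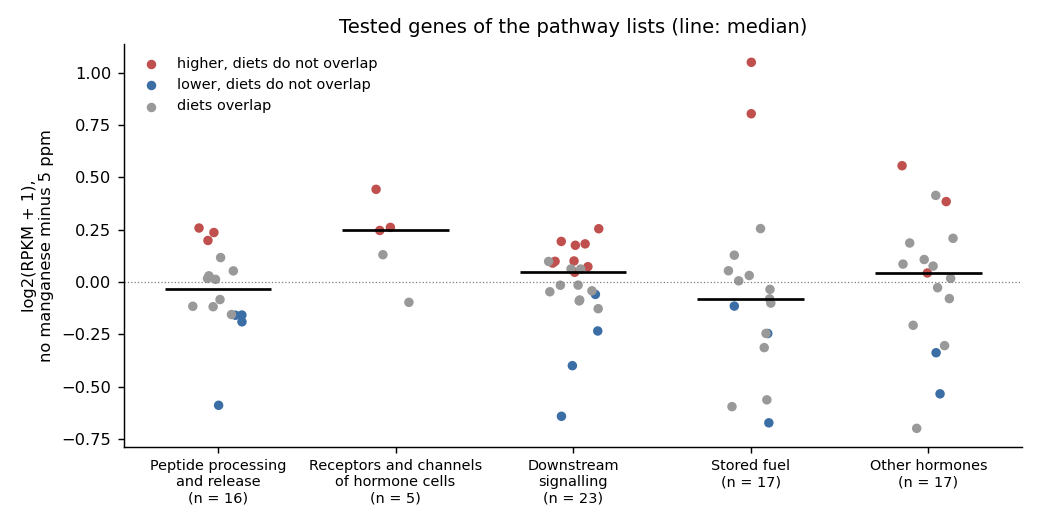
Log2 difference, no manganese minus 5 ppm, of each tested gene in the 5 pathway lists (points, spread sideways for clarity; black lines, medians). Medians lie between -0.08 and 0.25, and no gene was called.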

How the data were processed

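The table of RPKM values was made and deposited by the authors; the build dm6, STAR 2.5.2b and DESeq2 appear without roles in the submitters' processing notes, and the sources used here do not give the counting program, its annotation or its strand setting. RPKM is relative to each library's reads. Columns name the diet and a letter and were mapped to the diet alone. Symbols, positions and exon lengths came from Ensembl release 115 (dm6 coordinates); 13852 identifiers matched. In low genes RPKM times exon length steps by whole reads, which gave divisors of 24399759 to 28010953 reads. Of values under 20 reads, 84.5% to 85.5% came within 0.02 of a whole number. Genes averaging 1 RPKM or more over the 4 libraries were tested with limma 3.58.1 (R 4.3.3) on log2(RPKM + 1), no manganese minus 5 ppm, with a variance trend. P values were 2-sided, with Benjamini-Hochberg adjustment over all tested genes and a threshold of 0.05. This scale understates changes of low genes. An exact test of 2 against 2 libraries could not pass that threshold. The code of the fit was run on simulated counts with independent libraries and a fixed spread. That run cannot show how the fit behaves with the gaps between libraries seen here. Read rate ratios have exact binomial 95% intervals. The members and lists were chosen with earlier results of these data known. Of 226 list entries 6 matched no row and 3 were repeats. Named from each list were up to 5 tested members of smallest unadjusted p; amon, 7B2, PK1-R, CrzR, the neighbours and the single markers were added for their role, position or level, after values were seen.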

Additional observations from a re-analysis of the deposited data

How the results depend on the processing

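Akh stayed higher without manganese in the 13 alternatives that gave a value, and its log2 difference of 2.07 moved with the scale: 3.43 with a pseudocount of 0.1, 0.88 with a pseudocount of 5 and 3.65 with voom on recovered reads. With 1 library left out it ran from 1.75 to 2.39. Lst ran from -0.14 to 0.32, turning below 0 only without no-manganese library C, and was not called in any alternative. AkhR ran from -0.17 to 0.19 with 1 library left out. The count of genes called was 0 in all but 2 alternatives and ran from 0 to 11 with 1 library left out: 11 without no-manganese library B and 5 without no-manganese library C, Lst not among them. With the library letters as a replicate block the count stayed 0, with 446 higher and 432 lower genes at an unadjusted p under 0.05, and the differences of Akh and Lst were 2.07 and 0.09; this block changed no call. Differences of B minus C correlated between the diets (r = 0.341 across genes), but with 2 pairs this does not show that the letters pair the libraries. A limit of 5 RPKM left out Akh and Lst, and AkhR had no value under the scaling alternatives. Depth limits Akh in the 5 ppm libraries and AkhR in all.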

Other observations

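In no-manganese library B, 2 genes of other tissues stood apart from the rest. The neuropeptide gene Pdf had 13 reads (0.732 RPKM) there and 0 in the other 3 libraries. The potassium channel gene Irk3, listed here for the Malpighian tubule, had 2.503 RPKM there and 0.0196 to 0.0901 RPKM in the others. The Capa receptor gene CapaR, of the same tubule list, had 15 reads there, 2 in no-manganese library C and 0 in the 5 ppm libraries. Of the others on that list, Uro and salt were also highest in no-manganese library B, but ClC-a and Best2 were not. The list summed to 20.1 and 18.9 RPKM in no-manganese libraries B and C, and to 15.4 and 19.3 in 5 ppm libraries B and C. Pdf, Irk3 and CapaR were picked after their values were seen. Akh was the same in this library as in no-manganese library C, where Pdf, Irk3 and CapaR were low. The part of other tissues in the Akh values was not tested.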
